A study of Mus musculus with 16 samples.

Results

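The genes described here are 55 mouse genes of ribosome biogenesis and of RNA polymerase I, the enzyme that transcribes the large ribosomal RNA precursor. They were chosen by name, with earlier results of these data known. Each was read from the brightest transcript cluster on the array that carries its symbol and no other. By that rule 45 of the 55 were measured, among 14860 genes tested in all, and Polr1c, Fbl, Dkc1, Utp18, Wdr43, Wdr75, Ddx18, Noc2l, Npm1 and Npm3 were not analysed here. RNA came from 16 samples of C57BL6/129 hybrid mice, hybridised to 1 exon array each. The 4 normal samples were B cells from spleen, 2 of genotype p53(-/-) and 2 of genotype p53(246/-). The 12 tumour samples were Myc-induced B lymphoma cells from lymph nodes, 6 of each genotype. These genotypes are called p53-null and p53-246 below, and the values of the 4 normal samples are given in the order p53-null 1, p53-null 2, p53-246 1 and p53-246 2. No group is labelled with a wild-type p53 allele, B cells were obtained by magnetic immuno-depletion of other cells, and neither the ages of the mice nor the way in which Myc was induced is stated in the sources used here. Spleen and normal cells go together in every sample, as do lymph node and lymphoma, so tissue and cell type cannot be told apart. The labels do not say that the samples of a group came from separate animals, so each p-value rests on the spread among these samples alone.

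Ribosomes are built mainly in the nucleolus. Polymerase I makes a long precursor RNA, small nucleolar ribonucleoproteins (snoRNPs) of the box C/D and box H/ACA kinds guide its methylation and pseudouridylation, and a large assembly of proteins called the small-subunit processome folds and cuts the part that becomes the small ribosomal subunit. A separate set of factors, among them the PeBoW complex of Pes1, Bop1 and Wdr12, matures the large subunit. Myc is known to raise the output of this machinery in growing cells, and p53 is stabilised when ribosome assembly is disturbed, through ribosomal proteins that bind Mdm2.

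Every one of the 45 measured genes was higher in lymphoma than in normal B cells. Values are log2 intensities, so a difference of 1 is a factor of 2, and differences are lymphoma minus normal with both genotypes averaged, from limma with Benjamini-Hochberg adjustment over all genes tested and a threshold of 0.05. Of all genes, 20.4% passed in the same direction. This contrast describes the list and is no independent test of it, since earlier results were known when it was chosen. The differences ran from 0.42 for Rrp12 to 3.004 for Rrp1b, with a median of 1.63, against a median of -0.09 over all genes. In 36 of the 45 the rise was at least 2-fold, as it was in 8.96% of all genes. In 44 of the 45 the lowest lymphoma lay above the highest normal sample, which held for 13.5% of all genes, and Pes1 was the exception. All 45 differences stayed positive under the 26 alternative settings tried. Averaged over the 45 genes, intensity was 7.16 ± 0.08 in normal cells (SD, n = 4) and 8.71 ± 0.09 in lymphomas (SD, n = 12). In bulk samples a change in the number of cells of a type and a change in RNA per cell cannot be told apart.

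**Figure D1:**
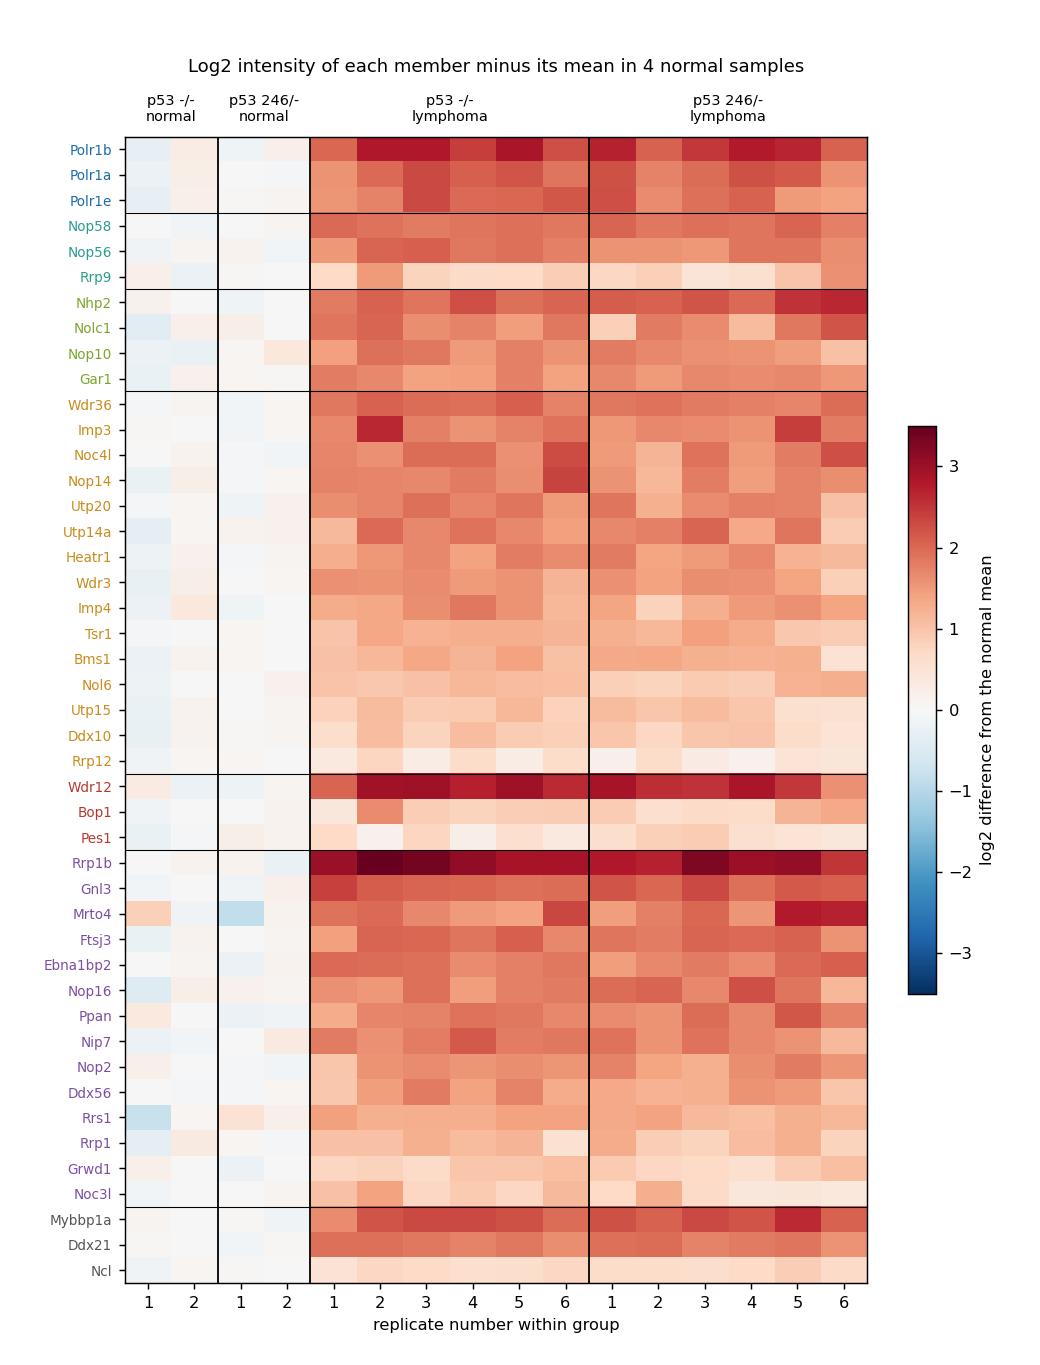
Log2 intensity of each of the 45 measured genes minus its mean over the 4 normal samples, by sample. Rows are genes grouped by role, columns are samples by genotype and replicate number, and red marks values above the normal mean. The 12 lymphoma columns are red in every row, palest for Rrp12, Pes1 and Ncl and darkest for Rrp1b, Wdr12 and Polr1b.

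The arrays and the purity of the cells were compared first. The SD of values over genes was lowest for normal p53-null sample 1 (1.57) and for p53-246 lymphoma 6 (1.56), against 1.69 to 1.94 on the others, and these are called the narrow arrays. Of 12 B cell markers, 10 were measured and all 10 lay above a low-value level of 5.16 on every array. That level is the 95th percentile of the values of 800 olfactory and vomeronasal receptor genes. The mean of the B cell markers was 9.92 to 10.3 in normal cells and 8.07 to 9.27 in lymphomas, and 9 of the 10 were lower in lymphoma, as were 17.8% of all genes. Of 12 proliferation markers, 10 were measured and all 10 were higher in lymphoma, as were 20.4% of all genes. These markers had list means of 5.86 to 6.14 against 8.74 to 9.13 and a median difference of 2.94. Their part in the rise of the ribosome biogenesis genes was not tested. Neutrophil markers were also higher in 5 of 9 cases, against 20.4% of all genes, with list means of 4.56 to 5.57 in normal cells and 5.93 to 6.80 in lymphomas. Of these 9 markers, 7 had a normal mean under the low-value level and 3 a lymphoma mean under it. Lower in lymphoma were 6 of 11 macrophage, 5 of 7 NK cell, 3 of 6 dendritic cell, 4 of 4 platelet, 1 of 5 erythroid and 2 of 9 stromal and endothelial markers, the last 2 lists near the share of all genes. Of 10 T cell markers 1 was lower, and the list averaged 6.04 in normal p53-null sample 2 and 6.36 in p53-null lymphoma 6, against 4.77 to 5.41 elsewhere. The part of these cells in the rise was not tested, and all 45 genes stayed higher when either of these samples, or both narrow arrays, were left out.

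Because the genes rose together, the sequence around their starts was examined. RefSeq promoter windows of build GRCm38.p6, from 250 bases before to 50 after a gene's start, were at hand for 40 of the 45. The palindrome CACGTG, the E-box form that Myc is known to bind as a dimer with Max, was in the windows of 7 of the 40 (17.5%), against 10.1% of 11894 tested genes with a window and 13.8% of the 2515 of these that were higher in lymphoma. The 7 genes were Grwd1, Imp4, Mybbp1a, Nop2, Pes1, Tsr1 and Utp20. Only Imp4 and Nop2 had it before the start, with its first base at -121 and -60 from the start. The median difference in lymphoma was 1.40 for the 7 genes with the hexamer and 1.75 for the 33 without. The E-box variant CACGCG, on either strand, was in 15 of 40 (37.5%), against 15.96% of tested genes and 24.3% of the higher ones. The heptamer CCGGAAG, which holds the core bound by ETS factors, was also in 15 of 40 on either strand, against 14.4% and 25.8%. By their letters none of the 3 motifs can overlap another, and a match is a description of letters, not of binding.

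A feature that many of these genes share is a neighbour that starts close by on the other strand. By the starts in the same RefSeq table, 17 of the 40 genes (42.5%) had a gene on the opposite strand that starts within 1000 bases upstream and runs away from them, against 15.4% of all tested genes with a window and 25.4% of those higher in lymphoma. The stretches below are shown because they are the shared upstream DNA between 2 such starts (Imp4 with Ccdc115, Noc4l with Ddx51, Ftsj3 with Psmc5, Wdr12 with Carf) or, for Nop2, the 100 bases before its start that hold both CACGTG and CCGGAAG. Each is read on the strand of the named gene, ends at the base before its start, and has these motifs in capitals.
Imp4, chr1:34439673-34439828, plus strand: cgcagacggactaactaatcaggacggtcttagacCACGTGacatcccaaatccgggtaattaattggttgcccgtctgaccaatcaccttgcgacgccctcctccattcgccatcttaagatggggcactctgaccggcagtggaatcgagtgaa
Nop2, chr6:125131783-125131882, plus strand: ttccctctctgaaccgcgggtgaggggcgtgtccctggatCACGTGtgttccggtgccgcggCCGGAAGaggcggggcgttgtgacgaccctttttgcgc
Noc4l, chr5:110653383-110653450, minus strand: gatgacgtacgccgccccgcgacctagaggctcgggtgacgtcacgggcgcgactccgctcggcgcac
Ftsj3, chr11:106256085-106256184, minus strand: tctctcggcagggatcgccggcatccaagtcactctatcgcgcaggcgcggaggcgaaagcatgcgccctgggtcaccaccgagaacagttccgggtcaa
Wdr12, chr1:60098135-60098246, minus strand: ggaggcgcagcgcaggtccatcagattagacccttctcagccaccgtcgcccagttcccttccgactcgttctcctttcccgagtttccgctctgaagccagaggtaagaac

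Of the 17 neighbours, 12 were tested themselves. Of these 5 were higher in lymphoma, 1 was lower and 6 did not pass, with a median difference of 0.20. Over all genes 20.4% were higher and 17.8% lower, with a median of -0.09. In each of the 12 pairs the ribosome biogenesis gene had the larger difference. Since all 45 genes of the list rose, with a median of 1.63, that outcome was close to fixed in advance. Ptcd3, a mitochondrial ribosome-associated protein gene beside Polr1a, had the largest rise among the neighbours, by 1.17 (SE 0.11, adjusted p = 1.01e-07). Psmc5, a proteasome ATPase gene whose start is 101 bases from that of Ftsj3, rose by 1.08 (SE 0.11, adjusted p = 3.97e-07) while Ftsj3 rose by 1.87. Ddx51, an RNA helicase gene beside Noc4l, rose by 0.65 (SE 0.11, adjusted p = 1.69e-04), and Noc4l by 1.77. Ccdc115, which shares the printed stretch with Imp4, differed by 0.14 (SE 0.11, adjusted p = 0.336), where Imp4 rose by 1.40. Parp3, a poly(ADP-ribose) polymerase gene 360 bases from Rrp9, fell by 1.20 (SE 0.12, adjusted p = 2.63e-07) while Rrp9 rose by 0.86. These pairs were described after their values were seen.

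**Figure D2:**
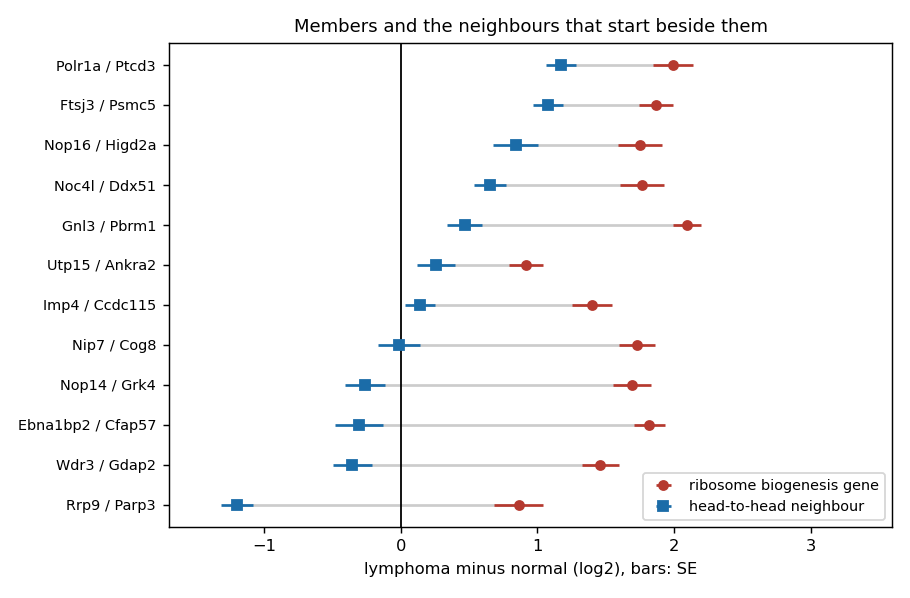
Lymphoma minus normal difference (log2, bars SE) of the 12 ribosome biogenesis genes whose head-to-head neighbour was tested (red circles) and of that neighbour (blue squares). The circle lies to the right of the square in all 12 pairs, and the squares run from Parp3 at -1.20 to Ptcd3 at 1.17.

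Polymerase I was represented by 3 subunits, and all 3 rose by more than 3-fold. Polr1a, the largest subunit, which carries the active site, read 6.66, 7.07, 6.86 and 6.81 in the 4 normal samples. Its lowest, median and highest values were 8.42, 8.89 and 9.17 in p53-null lymphomas and 8.42, 8.90 and 9.09 in p53-246 lymphomas. The normal and lymphoma values do not overlap, and the difference was 1.99 (SE 0.15, adjusted p = 7.46e-09), a 3.97-fold rise. Polr1b, the second-largest subunit, read 4.68, 5.20, 4.80 and 5.11 in the 4 normal samples. In lymphomas it ran from 6.96 over a median of 7.56 to 7.82 (p53-null) and from 7.03 over 7.51 to 7.73 (p53-246). All 12 lymphomas thus lay above the low-value level of 5.16 and only 1 of the 4 normal samples did. Measured means differed by 2.49 (SE 0.17, adjusted p = 4.10e-09). With normal values under that level raised to it, Polr1b was 4.82-fold higher in lymphoma, a value that leaves out sampling error. Polr1e, a subunit of the part of the enzyme that aids initiation and elongation, read 5.95, 6.41, 6.28 and 6.34 in the 4 normal samples. Its lymphoma values were 7.79, 8.24 and 8.54 (lowest, median, highest) in p53-null and 7.66, 8.05 and 8.50 in p53-246. The groups are again apart, by 1.88 (SE 0.16, adjusted p = 4.66e-08).

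Other genes of polymerase I transcription, from a list of 13 of which 9 were measured, did not all move in one direction. On that list 6 were higher, 1 was lower and 2 did not pass, with a median of 0.47. Beside this and the further pathway lists below stand 20.4% of all genes higher and 17.8% lower. Ubtf, the factor that binds and opens ribosomal DNA, rose by 1.16 (SE 0.13, adjusted p = 8.36e-07), and Taf1d, a part of the selectivity factor SL1, by 1.03 (SE 0.11, adjusted p = 5.16e-07). The list also holds further subunits of the enzyme itself. Of these, Twistnb rose by 0.87 (SE 0.16, adjusted p = 1.96e-04) and Cd3eap by 0.47 (SE 0.10, adjusted p = 7.84e-04). Polr1d rose by 0.35 (SE 0.11, adjusted p = 0.0229). Znrd1, a small polymerase I subunit, differed by -0.01 (SE 0.29, adjusted p = 0.986). Baz2a, a subunit of a complex that silences ribosomal DNA, fell by 0.64 (SE 0.15, adjusted p = 0.0018).

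**Figure D3:**
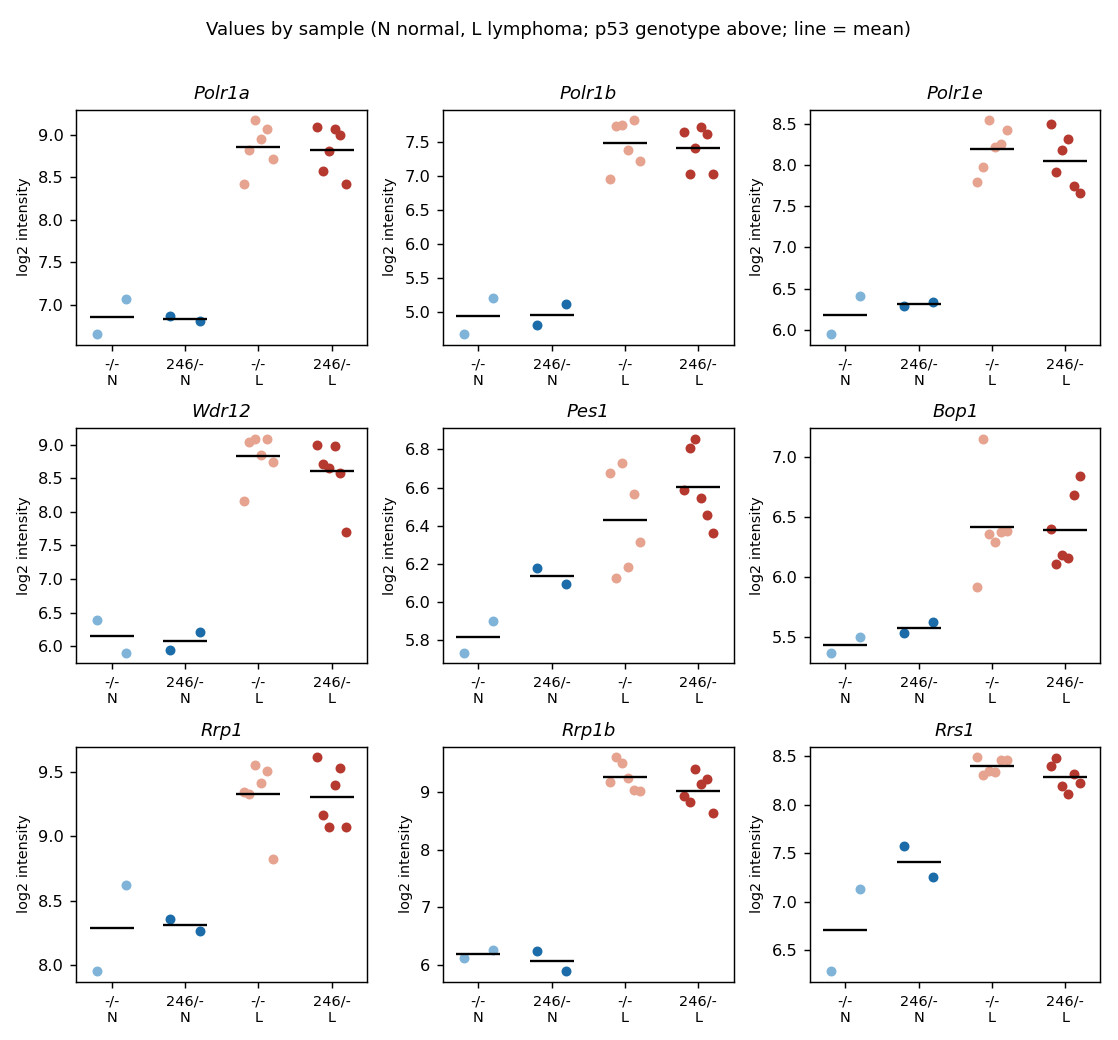
Log2 intensity by sample of 9 genes in normal (N, blue) and lymphoma (L, red) cells of each p53 genotype; lines are group means of 2 normal or 6 lymphoma samples and each panel has its own axis. The groups are apart in every panel but that of Pes1, where the lowest p53-null lymphoma, at 6.13, lies under the highest normal sample, at 6.18.

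Among box C/D proteins, Nop56 and Nop58 rose by 1.77 and 1.90 and Rrp9 by 0.86. Nop56 and Nop58 are related proteins that sit together with fibrillarin in each box C/D particle. Nop58 read 9.72, 9.66, 9.77 and 9.83 in the 4 normal samples, and 11.50 to 11.78 over all 12 lymphomas, with medians of 11.63 (p53-null) and 11.65 (p53-246). Its groups are narrow and far apart, with a difference of 1.90 (SE 0.08, adjusted p = 8.29e-12). Nop56 read 8.88, 9.11, 9.14 and 8.92 in the 4 normal samples, and 10.54 to 11.09 in the lymphomas, whose medians were 10.90 and 10.62 in the same order. Its rise had an SE of 0.11 and an adjusted p of 1.22e-09. Within arrays, the log2 difference of Nop58 and Nop56 ran from 0.55 to 0.92 in normal cells and from 0.47 to 1.19 in lymphomas, which overlap. The rise of Nop58 exceeded that of Nop56 by 0.13, which did not pass an exact two-sided permutation test over samples (adjusted p = 0.315 over the 2 paralogue pairs tested). Rrp9, a protein of the U3 particle that guides early cleavage, read 5.87, 5.47, 5.73 and 5.65 in the 4 normal samples and had medians of 6.42 and 6.45 in the lymphoma groups. Its highest values, 7.16 in p53-null lymphoma 2 and 7.29 in p53-246 lymphoma 6, stand above the rest. Rrp9 rose by 0.86 (SE 0.18, adjusted p = 9.52e-04).

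All 4 measured box H/ACA genes rose by at least 3-fold. Nhp2, which binds the RNA fold of these particles, read 5.96, 5.77, 5.65 and 5.80 in the 4 normal samples, and 7.61 to 8.42 in the lymphomas. It rose by 2.12 (SE 0.12, adjusted p = 3.04e-10). Gar1, which helps substrate turnover by the pseudouridine synthase, read 7.65, 8.02, 7.93 and 7.90 in the 4 normal samples, and 9.28 to 9.67 in the lymphomas. Its rise was 1.60 (SE 0.10, adjusted p = 1.12e-09). Nop10, a small protein that bridges Nhp2 and the synthase, rose by 1.60 as well, and Nolc1, a nucleolar chaperone of snoRNPs, by 1.67. On a list of 11 further genes that assemble snoRNPs, 8 were measured and all 8 rose, with a median of 1.22. Ruvbl1 and Ruvbl2, paired ATPases that load these particles, rose by 2.57 (SE 0.32) and 2.28 (SE 0.16). The smallest rises on that list were 0.42 for Pih1d1, an adaptor of the same loading machine, and 0.71 for Tgs1, which modifies the cap of snoRNAs.

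The 15 measured small-subunit genes spanned a wide range around a median of 1.46. Wdr36, a propeller protein of the processome, read 7.36, 7.54, 7.35 and 7.51 in the 4 normal samples, and 9.15 to 9.54 in the lymphomas. Its rise was the largest of the class, 1.89 (SE 0.09, adjusted p = 3.16e-11). A second transcript cluster of Wdr36 moved the same way, from a mean of 6.77 to one of 8.52. Imp3 and Imp4, partners that bring U3 to the precursor, rose by 1.83 and 1.40. The further processome proteins Noc4l, Nop14, Utp20, Utp14a, Heatr1 and Wdr3 rose by 1.77, 1.69, 1.63, 1.61, 1.50 and 1.46. Smaller rises were seen for the GTPase Bms1 (1.18) and its relative Tsr1 (1.19), Nol6 (1.01), Utp15 (0.92) and the helicase Ddx10 (0.84). Rrp12, an export factor of pre-ribosomes in yeast, had the smallest difference of all 45 genes. It read 4.96, 5.16, 5.15 and 5.09 in the 4 normal samples, none of them above the low-value level, since the highest, at 5.159, lay just under its unrounded value of 5.163. Its lymphoma values were 5.35, 5.58 and 5.84 (lowest, median, highest) in p53-null and 5.23, 5.45 and 5.74 in p53-246. Measured means differed by 0.42 (SE 0.12, adjusted p = 0.00804). Against the low-value level Rrp12 was 1.27-fold higher in lymphoma, with sampling error left out. On a list of 36 other small-subunit genes, 32 were measured, 27 rose, 0 fell and 5 did not pass, with a median of 1.17. The largest rises there were those of Utp4 (2.59, SE 0.14) and Utp6 (1.96, SE 0.16), both processome proteins, and the smallest values those of Rrp7a (-0.04, SE 0.19, adjusted p = 0.900) and Rrp36 (0.01, SE 0.16, adjusted p = 0.950).

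**Figure D4:**
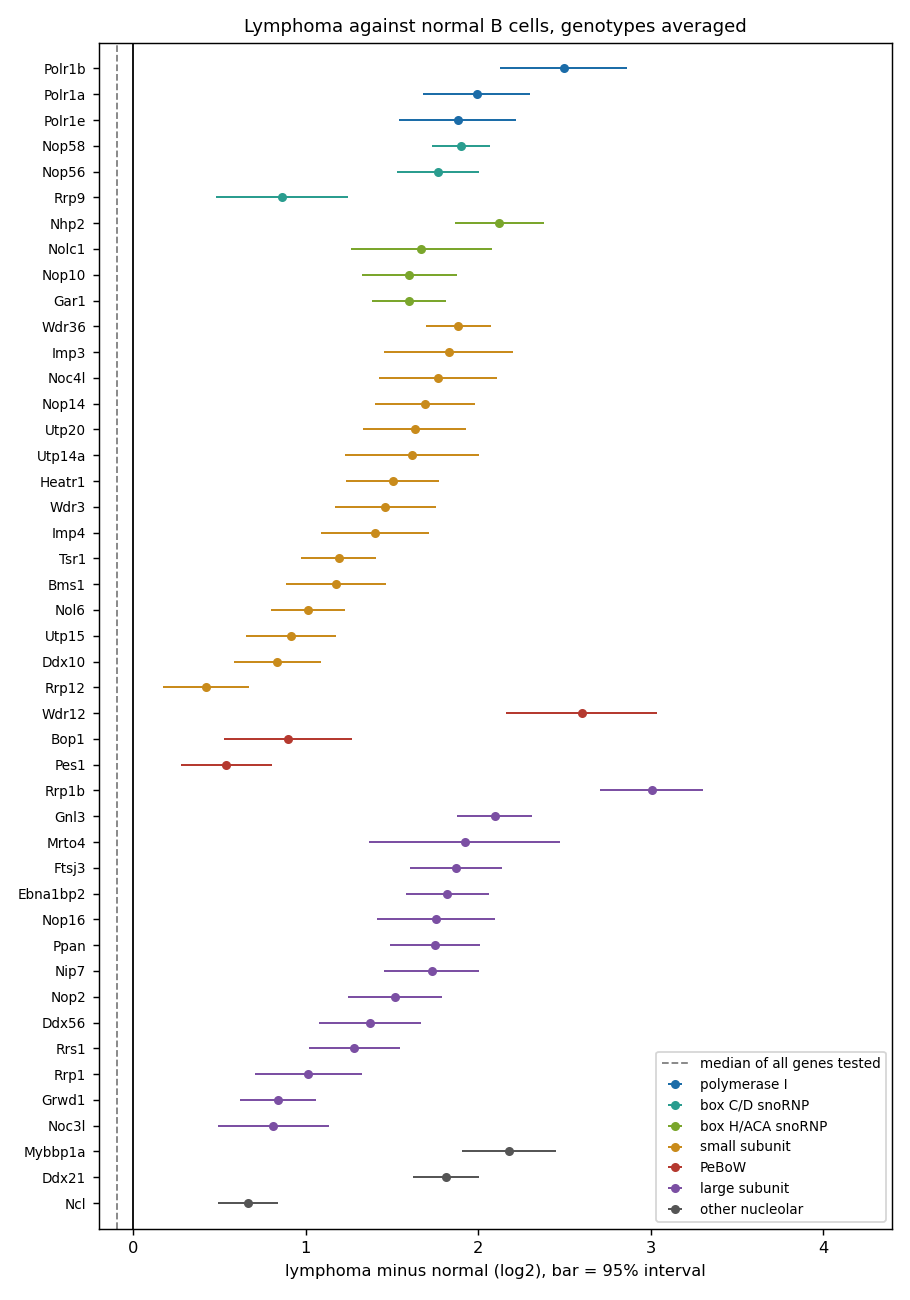
Lymphoma minus normal difference (log2, both genotypes averaged) of the 45 measured genes with its 95% interval, coloured and ordered by role. All intervals lie to the right of 0, from Rrp12 at 0.42 to Rrp1b at 3.004, and the dashed line marks the median of all genes tested at -0.09.

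The 3 members of the PeBoW complex rose by unequal amounts. Wdr12, its propeller subunit, read 6.39, 5.91, 5.94 and 6.21 in the 4 normal samples. In lymphomas Wdr12 ran from 8.16 over a median of 8.94 to 9.09 in p53-null and from 7.71 over 8.68 to 8.99 in p53-246. Every lymphoma is more than 1 log2 unit above every normal sample, and the difference was 2.60 (SE 0.21, adjusted p = 1.89e-08), a 6.06-fold rise. Bop1, which bridges the other members, read 5.37, 5.50, 5.53 and 5.62 in the 4 normal samples. Its lymphoma values were 5.91, 6.37 and 7.15 (lowest, median, highest) in p53-null and 6.10, 6.29 and 6.84 in p53-246. Bop1 rose by 0.90 (SE 0.18, adjusted p = 4.65e-04), with no overlap. Pes1, the scaffold of the complex, read 5.74, 5.90, 6.18 and 6.09 in the 4 normal samples. Its lymphoma values were 6.13, 6.44 and 6.73 (lowest, median, highest) in p53-null and 6.36, 6.57 and 6.86 in p53-246, so the lowest lymphoma lies within the normal range. Pes1 rose by 0.54 (SE 0.13, adjusted p = 0.0021). The rise of Wdr12 thus exceeded that of Pes1 by 2.06 and that of Bop1 by 1.70, given as a description with no test, since the unequal rises were seen first. These are differences of differences on the log2 scale, and levels of separate probe sets were not compared.

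Large-subunit factors included the largest rise and a pair of paralogues that differed. Rrp1b and Rrp1 are both related to the yeast large-subunit factor Rrp1. Rrp1b read 6.12, 6.26, 6.25 and 5.90 in the 4 normal samples, and 9.02, 9.20 and 9.59 (lowest, median, highest) in p53-null and 8.64, 9.03 and 9.40 in p53-246 lymphomas. Its groups are far apart, by 3.004 (SE 0.14, adjusted p = 2.73e-11), an 8.02-fold rise. Rrp1 read 7.95, 8.62, 8.36 and 8.27 in the 4 normal samples, and ran in lymphomas from 8.82 over a median of 9.37 to 9.55 (p53-null) and from 9.07 over 9.28 to 9.61 (p53-246). Here the highest normal and the lowest lymphoma sample, both p53-null, lie close together, and the rise was 1.02 (SE 0.15, adjusted p = 2.34e-05). Within arrays, the log2 difference of Rrp1b and Rrp1 ran from -2.36 to -1.83 in normal cells and from -0.68 to 0.33 in lymphomas. That shift of 1.99 passed the exact two-sided permutation test over samples (adjusted p = 0.0011 over the 2 paralogue pairs, the smallest that this test can give here). The pairs and the test were chosen with earlier results of these data known, so this p-value is no independent support.

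The other large-subunit genes rose by 0.81 to 2.10. Gnl3 (nucleostemin), a nucleolar GTPase, rose by 2.10 (SE 0.10). Mrto4, which in yeast holds the place of a stalk protein on the immature subunit, rose by 1.92, with the widest error of the 45 genes (SE 0.26). Its values were scattered in normal cells, at 8.86, 7.89, 7.16 and 8.14, against 9.42 to 10.79 in lymphomas. The assembly factors Ftsj3, Ebna1bp2, Nop16, Ppan and Nip7 rose by 1.87, 1.82, 1.75, 1.75 and 1.73. The RNA methyltransferase Nop2 rose by 1.52, the helicase Ddx56 by 1.37 and Rrs1, which in yeast helps to recruit the 5S particle, by 1.28. Grwd1, a histone-binding protein found with pre-ribosomes, had measured means that differed by 0.84 (SE 0.10, adjusted p = 4.09e-06). Only 1 of its 4 normal samples lay above the low-value level. With the others raised to it Grwd1 was 1.67-fold higher in lymphoma, with sampling error left out. Noc3l had the smallest rise of the class, 0.81 (SE 0.15, adjusted p = 3.27e-04). It read 6.91, 6.98, 7.003 and 7.10 in the 4 normal samples, and 7.36 to 8.40 in lymphomas. On a list of 45 other large-subunit genes, 37 were measured, of which 33 rose, 0 fell and 4 did not pass, with a median of 0.94. Nifk, a nucleolar partner of Ki-67, and Rrp15 had its largest rises (2.64, SE 0.11, and 2.62, SE 0.21). Nop53 (-0.08, SE 0.16, adjusted p = 0.707) and Wdr18 (-0.07, SE 0.12, adjusted p = 0.648) had its smallest values.

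The 3 remaining nucleolar genes differed in size of rise. Mybbp1a, a Myb-binding nucleolar protein, read 6.41, 6.32, 6.37 and 6.20 in the 4 normal samples, and 7.97, 8.54 and 8.65 (lowest, median, highest) in p53-null and 8.38, 8.54 and 8.95 in p53-246 lymphomas. The groups do not overlap, and Mybbp1a rose by 2.18 (SE 0.13, adjusted p = 4.88e-10). Ddx21, a helicase that acts in transcription and processing of ribosomal RNA, rose by 1.81 (SE 0.09). Ncl (nucleolin), an abundant nucleolar RNA-binding protein, read 11.58, 11.78, 11.75 and 11.70 in the 4 normal samples, and 12.22 to 12.57 in lymphomas. Its rise was 0.67 (SE 0.08, adjusted p = 3.83e-06), and with the arrays centred and scaled to one spread it was 0.21 (adjusted p = 0.431), the one rise of the 45 that did not pass in that setting.

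On a list of 15 genes of the RNA exosome and its partners, which trim the spacers of the precursor, 14 were measured, 12 rose, 0 fell and 2 did not pass, with a median of 1.09. Mphosph6 and Exosc2 had the largest rises (1.94, SE 0.32, and 1.92, SE 0.11), and Xrn2, a 5′ to 3′ exonuclease (0.11, SE 0.10, adjusted p = 0.384), and Exosc4 (0.18, SE 0.11, adjusted p = 0.201) the smallest values. Over the 5 further lists together, 100 of 120 genes were measured, 86 rose, 1 fell and 13 did not pass, and their median was 1.05. Of all genes 20.4% rose and 17.8% fell.

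The rise was present in both p53 genotypes. In p53-null samples all 45 genes were higher in lymphoma, where 17.5% of all genes were, with a median difference of 1.73. In p53-246 samples 42 of the 45 were higher, where 14.5% of all genes were, with a median of 1.54. The other 3 were Pes1 (0.47, SE 0.18, adjusted p = 0.0657), Noc3l (0.58, SE 0.22, adjusted p = 0.0588) and Rrp12 (0.33, SE 0.17, adjusted p = 0.182). Whether the rise differs between genotypes was tested as an interaction, p53-246 minus p53-null. By limma 0 of the 45 genes passed it, as 0% of all genes did. At an unadjusted p under 0.05 there were 2 of 45, against 3.63% of all genes. Those were Rrs1 (-0.81, SE 0.25, unadjusted p = 0.00463, adjusted p = 0.997) and Nop10 (-0.57, SE 0.26, unadjusted p = 0.0437, adjusted p = 0.997), followed by Nip7 (-0.52, SE 0.26, unadjusted p = 0.0599). The value of Rrs1 moved with single normal arrays: it was -0.39 without p53-null sample 1 and -1.24 (adjusted p = 0.00413) without p53-null sample 2. The interaction was negative for 36 of the 45 genes, and for 7243 of all 14860 genes. Of the 45, however, it was negative for 23 with quantile normalization and for 21 without the narrow arrays.

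**Figure D5:**
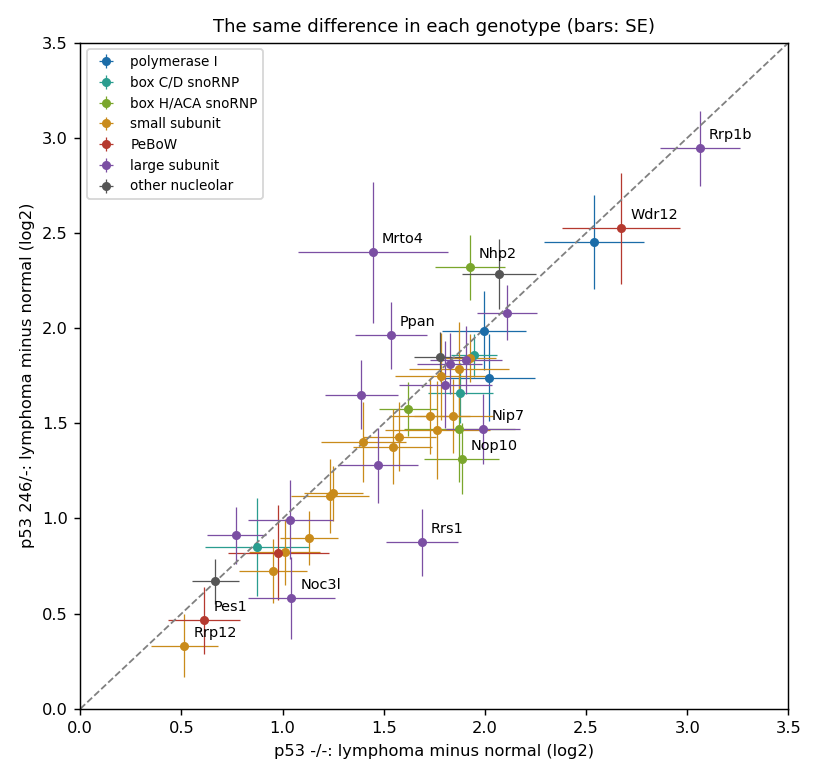
Lymphoma minus normal difference (log2, bars SE) of each of the 45 genes in p53-null samples (x axis) and in p53-246 samples (y axis), coloured by role, with the line of equality dashed. Points follow the line from Rrp12 to Rrp1b, with Rrs1 farthest below it (1.69 against 0.87) and Mrto4 farthest above it (1.45 against 2.40); no interaction passed after adjustment.

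Within lymphomas no gene separated the p53 genotypes after adjustment. By limma 0 of the 45 passed, as 0% of all genes did, and 2 of 45 had an unadjusted p under 0.05, against 2.99% of all genes. Those 2 were Noc3l (-0.35, 95% interval -0.68 to -0.03) and Nhp2 (0.26, 95% interval 0.00 to 0.51), p53-246 minus p53-null. Noc3l had medians of 7.98 in p53-null and 7.54 in p53-246 lymphomas, with ranges of 7.71 to 8.40 and 7.36 to 8.26 that overlap. Nhp2 had medians of 7.78 and 7.95, with overlapping ranges of 7.61 to 8.04 and 7.79 to 8.42. By size, the next negative value was that of Nop14 (-0.27, SE 0.14), with lymphoma ranges of 9.92 to 10.64 in p53-null and 9.43 to 10.06 in p53-246, and the next positive one that of Mrto4 (0.23, SE 0.26), with 9.42 to 10.36 and 9.47 to 10.79. The median of the 45 differences was -0.07, against 0.03 over all genes. The sign was negative for 33 of the 45, and for 6213 of all 14860 genes. Of the 45, however, it was negative for 24 with quantile normalization and for 25 without p53-246 lymphoma 6, the narrow array. That array had the lowest lymphoma value of 17 of the 45 genes. The 95% intervals reach 0.79 for Mrto4 and, in the other direction, -0.68 for Noc3l, so equal levels are not shown by these tests.

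Normal cells gave 0 of 45 genes past adjustment between genotypes by limma, as 0% of all genes, and 1 of 45 at an unadjusted p under 0.05, against 3.40% of all genes. That gene was Rrs1, which read 6.29, 7.14, 7.58 and 7.25 in the 4 normal samples, p53-null sample 1 being the low one, and 8.12 to 8.49 in lymphomas. The difference of 0.70 (SE 0.22, unadjusted p = 0.00472, adjusted p = 0.999) became 0.28 without p53-null sample 1 and 1.13 (adjusted p = 0.00343) without p53-null sample 2. Nop10, at 8.93, 8.90, 9.19 and 9.50 in the 4 normal samples, differed by 0.43 (SE 0.23, unadjusted p = 0.0746). Mrto4 and Ppan lay lowest on this scale, at -0.72 (SE 0.45) and -0.32 (SE 0.22). Ppan read 6.11, 5.75, 5.56 and 5.65 in the 4 normal samples, and 7.08 to 7.95 in lymphomas. Nip7 read 6.78, 6.89, 7.001 and 7.31 in the 4 normal samples, and 8.14 to 9.13 in lymphomas. The sign was positive for 30 of the 45 genes and for 7676 of all 14860, but negative for 30 of the 45 without p53-null normal sample 1. With 2 samples in each normal group, 1 array can move these values this far.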

How the data were processed

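RNA of 16 samples was measured on exon arrays. The authors deposited 1 value for each of 23332 transcript clusters and each array, taken here as a log2 intensity with summary, background correction and normalization not stated in any source used. No source names the base, and with natural logarithms the top value would stand for an intensity of 726214. Partek 6.5 and build mm8 are named, per the submitters' processing notes, with no step given. A mixed model ANOVA is named in the series' design, without its terms.

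Values were used as deposited. Symbols came from the platform annotation: 14996 clusters carry 1 symbol, 1019 several and 7317 none. The brightest single-symbol cluster of each gene was tested (14860 genes). In R 4.3.3, limma 3.58.1 fitted a mean for each of the 4 groups over all 16 arrays, with empirical Bayes moderation and Benjamini-Hochberg adjustment over all genes, two-sided, at 0.05. No filter on low values was used in the reported fit. The fit was checked first on simulated arrays with known changes. The number of arrays limits the precision, and normal groups hold 2 each.

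The 55 genes, the other gene lists and the tests were chosen with earlier results of these data known. Values by sample are given by a rule: all polymerase I and PeBoW genes, the extremes of each other role class, the extremes of each genotype difference, the 3 smallest interaction p-values and the paralogue pairs. For each further pathway list, 2 genes with the largest and 2 with the smallest difference are named. All measured polymerase I subunits are named as well. Alternatives were centring, quantile normalization, scaling, array weights, an unmoderated linear model, a filter on low values, all clusters, the mean of a gene's clusters, a replicate block, leaving out the 2 narrow arrays and leaving out each sample. Same-numbered samples of the 2 genotypes did not deviate together (correlation of deviations from the group means over genes -0.31 to 0.33 in lymphomas, 0.07 in normal cells), so the numbers were not taken as pairs.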

Additional observations from a re-analysis of the deposited data

Results flagged for a closer look

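In 6 cases a single lymphoma stood apart from the other 5 of its group, by Dixon's ratio of the gap to the group's range. The 24 genes with values by sample and the mean over all 45 genes were examined in both lymphoma groups, 50 tests in all, and chance alone gives about 1 in 20. Rrp9 read 7.16 in p53-null lymphoma 2, with the next at 6.55. Nop14 read 10.64 in p53-null lymphoma 6, with the next at 10.10. Rrp1 read 8.82 in the same p53-null lymphoma 6, the lowest of its group, with the next at 9.33, and that sample also had the highest mean of T cell markers, 6.36. Ppan read 7.08 in p53-null lymphoma 1, with the next at 7.46. Wdr12 read 7.71 in p53-246 lymphoma 6, a narrow array, with the next at 8.58. Ncl read 12.57 in p53-246 lymphoma 5, with the next at 12.41. The part of T cells and of the narrow array in these values was not tested. Each of the 6 genes stayed higher in lymphoma when any single sample was left out.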

How the results depend on the processing

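Of the 45 genes, 44 or 45 were higher in lymphoma under each of the 26 alternatives, the exception being Ncl with arrays centred and scaled. The cause was not tested. The median rise of 1.63 was 1.39 with quantile normalization and otherwise 1.51 to 1.73, and 1.59 to 1.68 when a single sample was left out. With a replicate block it was 1.61 and all 45 genes passed, and the block changed no call of the 45 genes in this comparison. The median of all genes moved from -0.09 to 0.01 when arrays were centred and to 0.04 when they were also scaled. Of 624 values of named genes for lymphoma against normal, 623 kept direction and call. Their signs stayed as reported. The number of negative genotype differences moved with the normalization. Leaving out 1 sample gave 0 to 1 genes past the threshold between genotypes in normal cells and 0 to 1 for the interaction. Both were Rrs1 without p53-null normal sample 2, at 1.13 (adjusted p = 0.00343) and -1.24 (adjusted p = 0.00413). That leaves p53-null normal cells with 1 sample, the narrow array, assumed to vary like the other groups.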
